A study of Homo sapiens with 6 samples.

Results

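The genes described here encode the subunits that are exchanged when the BAF chromatin remodelling complex passes from its neural progenitor form to its neuronal form. They were chosen by name, as a list of 10 genes out of the 47470 that the count files list: SMARCA4 and SMARCA2, ACTL6A and ACTL6B, PHF10, DPF2, DPF1 and DPF3, and SS18 and SS18L1. RNA-seq was performed on HEK293T, an immortal human line of embryonic kidney origin with the large T antigen of SV40. Valproic acid (VPA), which inhibits histone deacetylases, was given to the cells of 3 libraries at 1 mM for 1 day, and the other 3 libraries came from untreated cells. The cells of both conditions are labelled as wild type. HEK293T is 1 line of kidney origin and not a neuron, although untreated cells had counts of some neuronal and neural progenitor markers. The labels do not say whether the replicates were separate cultures, so that the p-values measure the spread between these 6 libraries.

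BAF, the mammalian SWI/SNF complex, uses the energy of ATP to slide or evict nucleosomes. When neural progenitors leave the cell cycle, some of its subunits are replaced by paralogs: the actin-related BAF53 subunit ACTL6A by ACTL6B, the PHD finger BAF45 subunits PHF10 and DPF2 by DPF1 and DPF3, and SS18 by SS18L1. The microRNAs miR-9-3p and miR-124, which REST keeps silent outside neurons, are known to act on the ACTL6A transcript and so to take part in the exchange.

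Counts on genes were between 18622267 and 18828495 per library. Of the 47470 genes, 15298 had enough counts to be tested, which was done by quasi-likelihood in edgeR with TMM normalization and Benjamini-Hochberg adjustment over all of them. Values given per library are TMM-normalized counts scaled to the mean library. A gene was called up- or down-regulated where the adjusted p was under 0.05 and the log2 fold change reached 1 or -1, as the study did, and higher or lower at the adjusted p alone. The kidney line markers VIM, KRT18, KRT8 and CDH2 were present in both conditions. LHX1, PAX2 and EPCAM of the same list were lower, with untreated means of 73.7, 29.5 and 25.1 normalized counts. Some neuronal markers were well counted in untreated cells, with means of 4344 for NEFM, 994 for NEFL and 830 for INA. Others were near 0, such as ELAVL3, ELAVL4 and STMN2, with 1, 2 and 2 counts in all untreated libraries together. Of the 8 neural progenitor markers, SOX2, PAX6, NES, MSI1 and, at low counts, HES5 were tested, while SOX1, FABP7 and PROM1 had too few counts, with 0, 0 and 3 in all untreated libraries together.

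By edgeR, 0 of the 9 tested subunit genes were up- or down-regulated in VPA-treated cells at the fold change threshold, and DESeq2 also gave 0, where 12.0% of all tested genes were up-regulated and 0.503% down-regulated. At the adjusted p alone, 3 of the 9 tested subunit genes were higher (SMARCA2, DPF1 and DPF3) and 5 were lower (SMARCA4, PHF10, DPF2, SS18 and SS18L1), against 32.9% of all tested genes higher and 30.0% lower. These directions are with TMM scaling, and those of SMARCA4, SS18 and SS18L1 turned when ribosomal protein genes set the scale. ACTL6A missed the threshold, and ACTL6B had too few counts to be tested. All 9 tested genes had an unadjusted p under 0.05, and their median log2 fold change was -0.11, against 0.0058 over all tested genes. Among the 9520 genes within the members' range of mean counts, 26.1% were higher, 41.0% lower, 3.48% up-regulated and 0.147% down-regulated. The 3 higher of 9 genes are near these background shares, the 5 lower of 9 are somewhat above them, and with so few genes neither count sets the list apart.

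**Figure D1:**
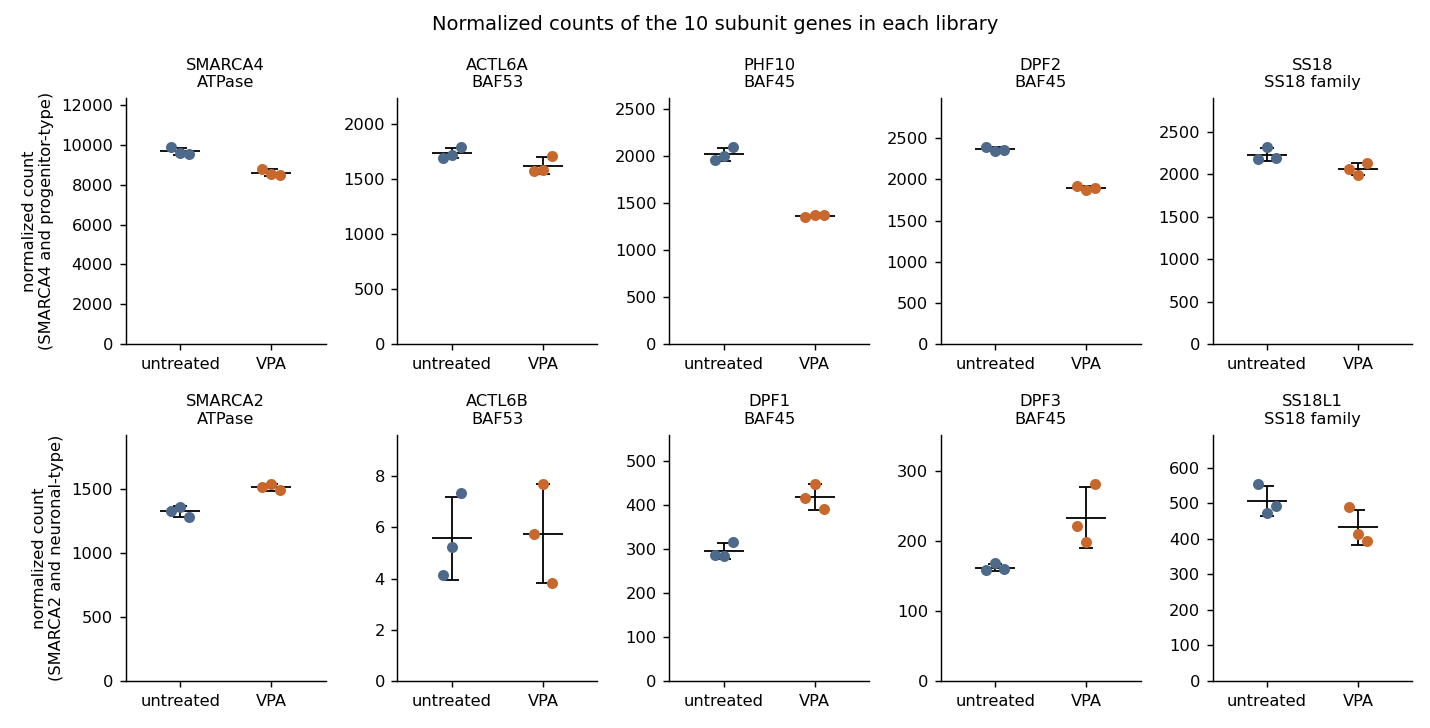
Each panel plots 1 subunit gene, with the TMM-normalized count on the y axis, starting at 0, and the 3 untreated (blue) and 3 VPA-treated (orange) libraries as points. The black dash is the mean and the bar is 1 SD. The upper panels hold SMARCA4 and the progenitor-type subunits, the lower panels SMARCA2 and the neuronal-type ones. PHF10 lay at 1961 to 2095 in untreated and 1352 to 1374 in VPA-treated libraries, and DPF1 at 284 to 317 and 390 to 448.

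The BAF45 family held the changes of largest size among the 9 tested genes with TMM scaling, and its members moved in opposite directions along the progenitor and neuronal division. PHF10 encodes BAF45A, found in progenitor BAF and in the PBAF form of the complex. Untreated libraries had 1961, 2005 and 2095 normalized counts of PHF10, and VPA-treated ones 1352, 1371 and 1374. The groups were far apart, and the VPA-treated libraries lay closer together than the untreated ones. The log2 fold change was -0.57 (SE 0.044, adjusted p = 3.9e-10).

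DPF2 encodes BAF45D, a reader of acetylated histone H3 tails that many cell types express. DPF2 stood at 2391, 2343 and 2360 untreated and at 1915, 1867 and 1893 after VPA. Every VPA-treated library was below every untreated one, with a log2 fold change of -0.32 (SE 0.041, adjusted p = 6.6e-07). With the ribosomal protein genes as the scaling the DPF2 value was -0.05 with an adjusted p of 0.31.

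DPF1 encodes BAF45B, a subunit of neuronal BAF. Its normalized count was 285, 284 and 317 in untreated and 416, 448 and 390 in VPA-treated libraries. All 3 VPA-treated libraries exceeded all untreated ones, and the log2 fold change was 0.50 (SE 0.076, adjusted p = 6.3e-06). DPF3, which encodes BAF45C, a subunit of neuronal BAF that is also known from heart and muscle, stood at 158, 168 and 160 untreated and at 221, 198 and 282 after VPA. The groups did not overlap, although the VPA-treated libraries were widely spread, with replicate 3 the highest. Its log2 fold change was 0.53 (SE 0.11, adjusted p = 0.00041), and 0.37 to 0.63 when each library was left out in turn.

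The directions of these 4 genes held under each scaling of the libraries. Their promoters are shown so that the windows of the pair that was higher can be read beside those of the pair that was lower. Each sequence runs from 250 bases before to 50 bases after the outermost RefSeq start of the gene on GRCh38.p14, on the strand of the gene. Capitals mark GC boxes (GGGCGG, or CCGCCC on the other strand) and CCAAT boxes (CCAAT, or ATTGG on the other strand). DPF1 lies at chr19:38229646-38229945 and DPF3 at chr14:72894052-72894351, both on the minus strand, DPF2 at chr11:65333602-65333901 on the plus strand, and PHF10 at chr6:169724451-169724750 on the minus strand.
DPF1: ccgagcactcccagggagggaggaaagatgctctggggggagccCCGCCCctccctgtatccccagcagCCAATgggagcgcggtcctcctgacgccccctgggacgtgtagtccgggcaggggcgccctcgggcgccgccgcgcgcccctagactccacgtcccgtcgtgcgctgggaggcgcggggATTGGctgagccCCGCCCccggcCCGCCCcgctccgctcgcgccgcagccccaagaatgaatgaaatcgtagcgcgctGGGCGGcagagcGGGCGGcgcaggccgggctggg
DPF3: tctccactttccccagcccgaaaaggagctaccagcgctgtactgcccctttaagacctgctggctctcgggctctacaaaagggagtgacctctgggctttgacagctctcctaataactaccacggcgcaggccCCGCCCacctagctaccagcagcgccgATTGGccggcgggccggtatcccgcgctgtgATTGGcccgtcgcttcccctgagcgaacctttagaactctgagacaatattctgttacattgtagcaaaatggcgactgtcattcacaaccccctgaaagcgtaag
DPF2: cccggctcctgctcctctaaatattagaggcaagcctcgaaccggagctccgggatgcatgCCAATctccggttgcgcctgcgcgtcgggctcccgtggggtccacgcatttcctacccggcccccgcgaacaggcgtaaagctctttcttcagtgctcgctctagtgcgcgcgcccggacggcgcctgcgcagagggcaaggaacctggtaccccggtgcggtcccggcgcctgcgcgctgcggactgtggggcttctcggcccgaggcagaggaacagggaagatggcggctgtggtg
PHF10: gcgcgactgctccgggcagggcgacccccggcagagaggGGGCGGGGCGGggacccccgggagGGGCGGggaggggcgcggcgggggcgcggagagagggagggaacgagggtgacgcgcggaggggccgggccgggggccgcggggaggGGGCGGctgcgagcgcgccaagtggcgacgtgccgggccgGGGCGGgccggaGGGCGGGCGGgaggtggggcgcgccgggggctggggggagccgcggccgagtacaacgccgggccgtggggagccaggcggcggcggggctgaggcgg

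The DPF1 window holds 5 GC boxes and 2 CCAAT boxes, and that of DPF3 holds 1 and 2. In the DPF2 window there is no GC box and 1 CCAAT box, while PHF10 has 7 GC boxes, some of them overlapping, and no CCAAT box. Of the 35116 promoters in the table, 45.0% hold a GC box and 34.6% a CCAAT box in a window of the same 300 bases. These counts describe 4 genes shown for their difference in direction, and no relation to direction was tested. The CpG observed over expected ratio was 0.85 for DPF1, 0.76 for DPF3, 0.96 for DPF2 and 1.01 for PHF10, against a median of 0.58 over all promoters. The left part of the REST binding element, TCAGCACC or its reverse complement GGTGCTGA, is in none of these 4 windows and in 1.67% of all promoters.

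Since total levels of the 4 BAF45 genes cannot be compared without their lengths, normalized counts were divided by the length of each gene's canonical transcript in GENCODE 44. On this scale PHF10 and DPF2 made up most of the BAF45 transcripts in both conditions. The share of DPF1 and DPF3 together was 8.18%, 8.17% and 8.65% before and 14.9%, 15.8% and 14.5% after VPA. The means were 8.33% ± 0.276 and 15.1% ± 0.627 (SD, n = 3 each), with no overlap. DPF1 alone accounted for 7.50% and 13.5%, and DPF3 for 0.832% and 1.53%. With the merged length of all exons in place of the canonical transcript, the joint share was 10.6% and 18.7%.

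**Figure D2:**
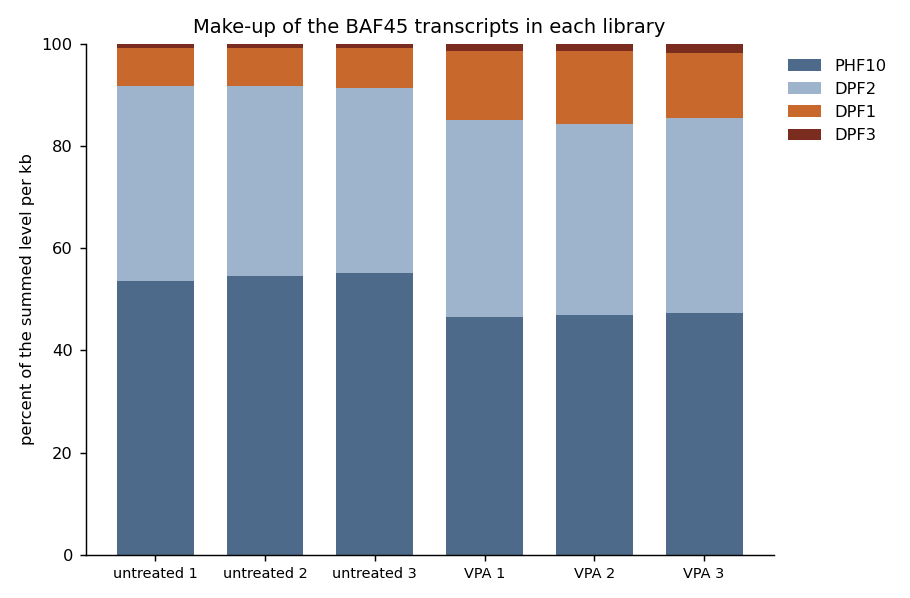
Each bar is 1 library, and its parts are the shares of PHF10, DPF2, DPF1 and DPF3 in their summed level per kilobase of canonical transcript, in percent. DPF1 and DPF3 together take 8.17% to 8.65% of the untreated bars and 14.5% to 15.8% of the VPA-treated bars.

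The exchange of BAF53 is a hallmark of the neuronal complex, and no exchange between its genes was detectable here. ACTL6A, the progenitor-type gene, stood at 1695, 1723 and 1789 untreated and at 1576, 1583 and 1708 after VPA. The groups overlapped, since VPA-treated replicate 3 lay above the lowest untreated library. Its log2 fold change was -0.10 (SE 0.047, 95% interval -0.19 to -0.00052, adjusted p = 0.074), and with the replicate number as a block the adjusted p was 0.013. Leaving out untreated replicate 1 or VPA-treated replicate 3 also brought the adjusted p to 0.038 and 0.030, while with library totals or ribosomal protein genes as the scaling the value was above 0.

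ACTL6B, which in the brain is restricted to neurons, was counted 4, 5 and 7 times without and 6, 8 and 4 times with VPA. These 34 counts in all give a ratio of 1.03 between VPA-treated and untreated cells, with a counting interval of 0.498 to 2.17. The counts of both groups spread over the same range, and a change smaller than these bounds was not detectable at this depth. The same gene took 0.387% ± 0.102 of the BAF53 transcripts per kilobase in untreated and 0.434% ± 0.158 in VPA-treated libraries (SD, n = 3 each). Its promoter window, at chr7:100656399-100656698 on the minus strand, holds 1 GC box and 3 CCAAT boxes, and its CpG ratio was 0.71.

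The ACTL6A transcript is shown with miR-9-3p, since that microRNA is known to act on it. The mature sequence is given with its seed, bases 2 to 8, in capitals. Both places in the 3′ UTR of the canonical ACTL6A transcript that match the seed are given below it, with the match AGCTTTA in capitals. They lie at chr3:179588044-179588066 and chr3:179588133-179588155 on the plus strand of GRCh38.
hsa-miR-9-3p: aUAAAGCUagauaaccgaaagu
ACTL6A first match: caccttacgtttcatAGCTTTAg
ACTL6A second match: acttaaattttttaaAGCTTTAa

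The 3′ UTR of ACTL6A is 397 bases long. Of the 14565 canonical 3′ UTRs of at least that length, 3.28% hold such a match in their first 397 bases and 0.0893% hold 2 or more. SMARCA2 has 1 match in a 3′ UTR of 881 bases, and the other 8 subunit genes have none, although that of DPF3 is 10263 bases long. A match is a stretch of letters and not a measured site, and mature microRNAs were not measured in these libraries.

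SMARCA4 and SMARCA2 encode BRG1 and BRM, the alternative ATPases of the complex. BRG1 predominates in progenitors and dividing cells, and BRM is known to increase as cells differentiate. SMARCA4 stood at 9876, 9585 and 9525 untreated and at 8792, 8521 and 8502 after VPA. The groups did not overlap, and the log2 fold change was -0.17 (SE 0.039, adjusted p = 0.00085), although it lost the call with library totals (adjusted p = 0.43) and turned to 0.10 with ribosomal protein genes as the scaling. The window around the SMARCA4 start holds 5 GC boxes and is the only one among the 9 members with an entry that holds the left part of the REST element.

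SMARCA2 moved the other way, from 1330, 1361 and 1278 to 1512, 1538 and 1487. No VPA-treated library fell within the untreated range. Its log2 fold change was 0.19 (SE 0.046, adjusted p = 0.00093), a small change that kept its direction and its call under each scaling and without each library. Per kilobase, SMARCA2 made up 11.7% ± 0.33 of the ATPase transcripts in untreated and 14.6% ± 0.307 in VPA-treated libraries (SD, n = 3 each).

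The SS18 pair showed no detectable shift toward its neuronal-type gene, and both of its genes were lower with TMM scaling. SS18, the progenitor-type gene, stood at 2182, 2317 and 2190 untreated and at 2064, 1989 and 2134 after VPA, with a log2 fold change of -0.11 (SE 0.044, adjusted p = 0.032). The groups did not overlap, although VPA-treated replicate 3 came close to untreated replicate 1. The call was lost without untreated replicate 2 (adjusted p = 0.13), VPA-treated replicate 1 (0.051) or VPA-treated replicate 2 (0.16). It was also lost with upper quartiles as the scaling (0.38) and with at least 10 counts required in every library (0.084), and the value was above 0 with library totals or ribosomal protein genes as the scaling.

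SS18L1 encodes CREST, a calcium-responsive coactivator of neurons. Its normalized count was 554, 474 and 493 in untreated and 488, 414 and 395 in VPA-treated libraries, so that the neuronal-type gene was lower too. The groups overlapped, and the log2 fold change was -0.23 (SE 0.079, adjusted p = 0.016). Without untreated replicate 1 the adjusted p was 0.071, without VPA-treated replicate 2 it was 0.069, and without VPA-treated replicate 3 it was 0.091. The call was also lost with upper quartiles (-0.16, adjusted p = 0.071) and library totals (-0.10, adjusted p = 0.32) as the scaling, and with ribosomal protein genes the value was 0.0413. The SS18L1 promoter window holds 4 GC boxes and that of SMARCA2 holds 2, with no CCAAT box in either, while that of SS18 has no GC box and 1 CCAAT box.

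Ratios between paralogs within a library do not depend on how the libraries are scaled. For each of 7 pairs the log2 ratio of the neuronal-type to the progenitor-type gene was compared between the conditions with an exact two-sided permutation test, which with 3 against 3 libraries cannot give a p under 0.1. Of the 7 pairs, 5 reached that smallest p (0.14 after adjustment over the 7), with all VPA-treated ratios above all untreated ones. Of these, 4 are combinations of the same 4 genes (DPF1, DPF3, DPF2 and PHF10) and are not separate results, and each gene's own change is to be read against the 32.9% of tested genes higher and 30.0% lower. DPF1/PHF10 was -2.78, -2.82 and -2.72 untreated and -1.70, -1.61 and -1.81 after VPA, a difference of 1.06 on the log2 scale or 2.09-fold. DPF3/PHF10 differed by 1.07 or 2.11-fold, from a mean of -3.63 to -2.56. These were the pairs with the widest shift.

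DPF1/DPF2 differed by 0.82 or 1.77-fold, DPF3/DPF2 by 0.83 or 1.78-fold, and SMARCA2/SMARCA4 by 0.36 or 1.28-fold. Each of these 3 pairs had no overlap between conditions, and the ATPase pair had the tightest libraries, at -2.89, -2.82 and -2.90 untreated and -2.54, -2.47 and -2.52 after VPA. SS18L1/SS18 was -1.98, -2.29 and -2.15 untreated and -2.08, -2.26 and -2.43 after VPA, with overlapping groups and a difference of -0.12 (exact permutation p = 0.5, adjusted p = 0.583). ACTL6B/ACTL6A differed by 0.13 (exact permutation p = 0.8), with wide scatter from the few ACTL6B counts.

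**Figure D3:**
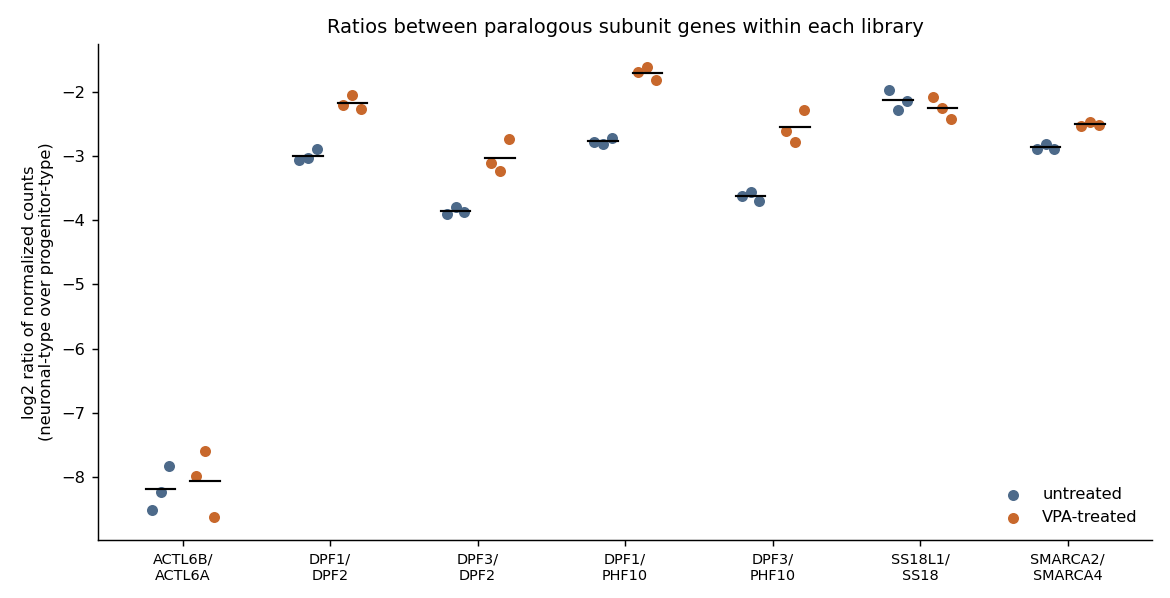
Points are single libraries (untreated in blue, VPA-treated in orange) and dashes are group means. The y axis is the log2 ratio of the normalized counts of the neuronal-type gene to those of the progenitor-type gene, without division by length. In the 4 BAF45 pairs and in SMARCA2/SMARCA4 all VPA-treated points lie above all untreated points, while the ACTL6B/ACTL6A and SS18L1/SS18 points overlap.

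In spite of these shifts the order of the levels did not change. Per kilobase of canonical transcript, the untreated means fell from SMARCA4 at 1733 ± 33.7 through ACTL6A (936 ± 26.1), PHF10 (932 ± 31.4), SS18 (655 ± 22.2) and DPF2 (637 ± 6.52) to SMARCA2 at 230 ± 7.32 (SD, n = 3 each). DPF1 followed at 128 ± 7.97, SS18L1 at 111 ± 9.26, DPF3 at 14.2 ± 0.466 and ACTL6B at 3.65 ± 1.07. ACTL6A and PHF10, and SS18 and DPF2, overlapped between untreated libraries, and the other neighbours in the order did not. In VPA-treated cells all 10 genes kept their ranks, with means of 1543 for SMARCA4, 182 for DPF1, 20.5 for DPF3 and 3.78 for ACTL6B per kilobase, and PHF10 (630) now overlapped SS18 (606). The 5 neuronal-type genes, with SMARCA2 counted among them, held the lowest 5 places in both conditions. With merged exon lengths some neighbours changed places, SS18L1 moving to place 6 and SS18 to place 3.

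The other genes of the complex give the surroundings of these values. Over all tested genes 30% were lower and 32.9% higher at the adjusted p alone. Within the members' range of mean counts, 41.0% of genes were lower and 26.1% higher. Of 19 further SWI/SNF subunit genes, all tested, 15 were lower and 1 was higher at the adjusted p alone, with a median log2 fold change of -0.28. Among them SMARCB1, the core subunit BAF47, was lower by a log2 fold change of -0.71 (SE 0.038, adjusted p = 7.6e-13), and SMARCD1, which encodes BAF60A, by -0.45 (SE 0.039, adjusted p = 2.5e-09). SMARCD3, which encodes BAF60C, a subunit known from heart and muscle, was the one higher gene, with 652, 611 and 653 untreated and 1097, 1059 and 1101 after VPA (log2 fold change 0.77, SE 0.053, adjusted p = 4.8e-11). The genes that did not pass were SMARCC2 (-0.01), BICRA (-0.15) and BICRAL (0.18), which were named after their values were seen. The 15 lower genes ran from -0.71 to -0.17, a range that holds PHF10 and DPF2. With the replicate number as a block 2 of the 19 genes were higher, against 5357 of all 15298 tested genes. The directions depend on the scaling, since with ribosomal protein genes 4 were higher and 6 lower. Over all 15298 tested genes that scaling gave 9262 higher and 846 lower.

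**Figure D4:**
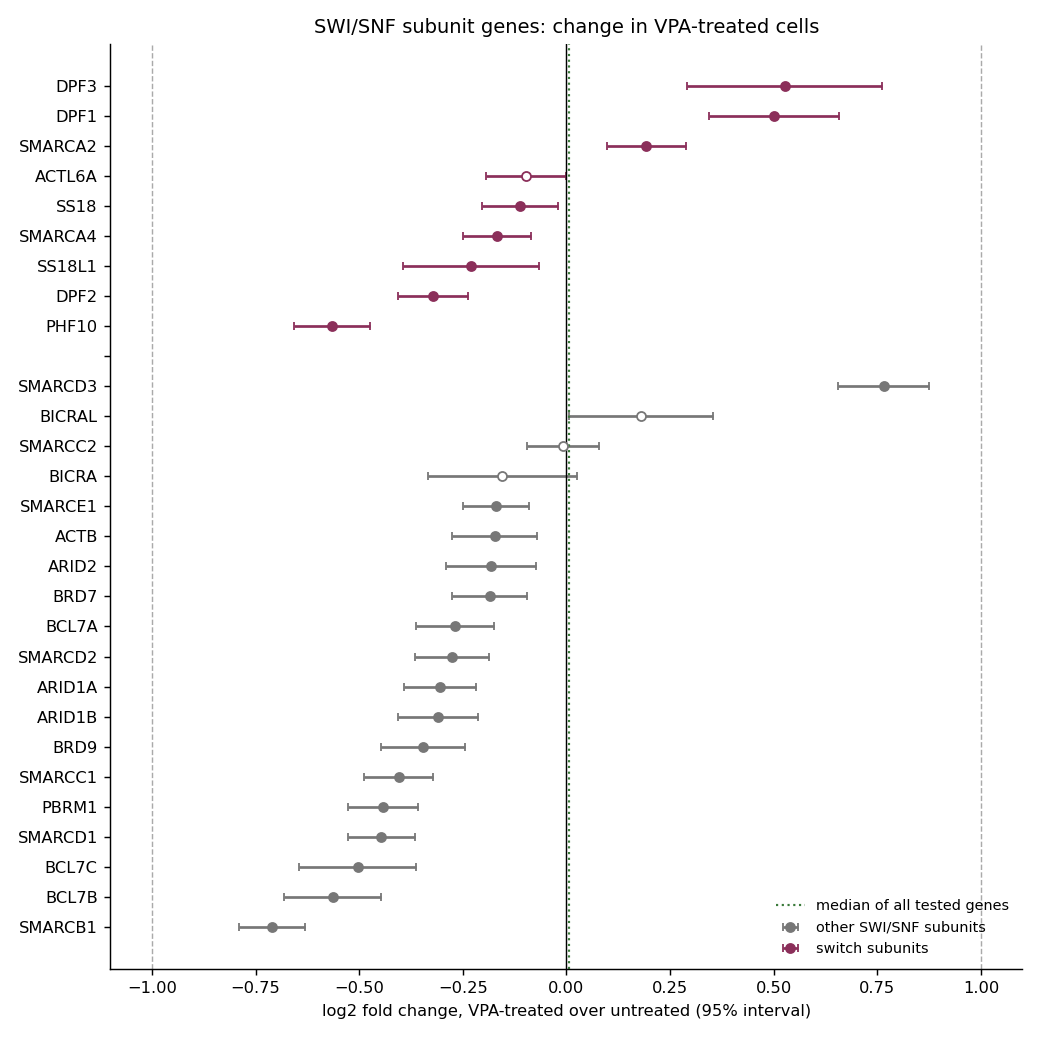
Log2 fold changes of VPA-treated over untreated cells with 95% intervals, for the 9 tested switch subunits (purple) and 19 other SWI/SNF subunits (grey). Filled points passed an adjusted p under 0.05, dashed lines mark the fold change threshold of 1 in either direction, and the dotted line is the median of all tested genes. SMARCD3 at 0.77, DPF3 at 0.53, DPF1 at 0.50 and SMARCA2 at 0.19 are the filled points to the right of 0 with TMM scaling.

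Other remodeller ATPases were listed for comparison with SMARCA4 and SMARCA2. Of 18 genes 16 were tested, 11 were lower and 1 was higher, against 30% lower and 32.9% higher over all tested genes. Their median was -0.15. With ribosomal protein genes as the scaling 9 were higher and 2 lower, against 9262 higher and 846 lower of all 15298 tested genes. With TMM the 1 higher gene was CHD5, a remodeller found chiefly in neurons and testis. It was up-regulated with a log2 fold change of 1.34 (SE 0.16, adjusted p = 3.2e-07), from counts of 32, 32 and 26 to 86, 75 and 87. SMARCA1 and ATRX, both X-linked, were listed at 0 in all 6 libraries. Since the annotation used in the counting is not given, this cannot be read as absent transcripts.

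Genes that control the exchange were examined by a list of 15 names. The count files list 14 of these names, and MIR9-2HG is not listed under that name. REST, the repressor of neuronal genes, stood at 753, 730 and 658 untreated and at 634, 722 and 678 after VPA, with overlapping groups (log2 fold change -0.07, 95% interval -0.21 to 0.057, adjusted p = 0.32), a value that was above 0 with library totals or ribosomal protein genes as the scaling. PTBP1, the splicing repressor that miR-124 targets, was lower at -0.42 (SE 0.045, adjusted p = 5.5e-08). PTBP2, its neuronal paralog, was at -0.16 (SE 0.056, adjusted p = 0.016) and turned to 0.11 with ribosomal protein genes as the scaling.

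Host transcripts of the microRNAs were rare. MIR9-1HG was counted 16, 8 and 21 times in untreated and 45, 57 and 58 times in VPA-treated libraries (log2 fold change 1.70, SE 0.24, adjusted p = 3.4e-06), without overlap. MIR124-1HG was counted 1, 0 and 1 times untreated and 13, 12 and 26 times after VPA, a ratio of 23.4 with a counting interval of 6.17 to 199. Its fitted log2 fold change was 4.32, and 2.76 with a prior count of 2. MIR9-1HG and MIR124-1HG had enough counts to be tested only with the VPA-treated libraries included. MIR9-3HG, with 2 counts untreated and 16 after VPA, was not tested and had a ratio of 7.35 (1.73 to 65.9). LINC00461, which hosts another copy of miR-9, did not pass (0.23, 95% interval -0.23 to 0.69, adjusted p = 0.39). MIR124-2HG and the 6 hairpin genes MIR9-1, MIR9-2, MIR9-3, MIR124-1, MIR124-2 and MIR124-3 were listed at 0 in every library, and mRNA libraries are not made to hold such short RNAs. Host transcripts of 3 microRNA loci were thus counted more often after VPA. ACTL6A, which did not pass, had a fitted ratio of 0.935 between the same libraries, and a relation of these transcripts to ACTL6A was not tested.

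NGEF, GAP43 and STMN2 are known to depend on neuronal BAF in neurons. NGEF stood at 187, 177 and 189 untreated and at 514, 491 and 496 after VPA (log2 fold change 1.44, SE 0.073, adjusted p = 2.8e-13). GAP43, a growth cone protein, rose from 49.7, 51.2 and 60.8 to 394, 407 and 392 (2.88, SE 0.10, adjusted p = 1.0e-15). STMN2 was counted 2 times in all untreated libraries and 22 times in the VPA-treated ones, a ratio of 10.1 with a counting interval of 2.49 to 88.7. All 3 were thus counted more often in every VPA-treated library, while ACTL6B stayed between 4 and 8 counts.

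Markers of other cell types moved beside these genes. Of 15 neuronal markers, which include GAP43 and STMN2, 10 were tested. All 10 were higher and 8 of them up-regulated, against 32.9% and 12% of all tested genes. SNAP25 (2, 2 and 2 counts untreated, 18, 21 and 18 after VPA) was tested only through the VPA-treated libraries. So was NEFH (7, 9 and 11 counts, then 52, 41 and 50), and a rise was built into the testing of these genes. The summed normalized count of the listed markers went from 6415 to 6796 in untreated libraries to 12012 to 12835 in VPA-treated ones. DCX and SYP, both X-linked, were listed at 0, which, as for SMARCA1 and ATRX, cannot be read as absent transcripts. Of 8 neural progenitor markers 5 were tested, of which 2 were higher and 1 lower, with summed counts of 2134 to 2286 and 2574 to 2669. The 2 higher genes were up-regulated, NES at a log2 fold change of 2.01 and HES5, at low counts, at 1.02. HES5 (9, 15 and 12 counts untreated, 24, 29 and 27 after VPA) was tested only through the VPA-treated libraries. PAX6 was the lower one, at -0.46. FABP7, which was not tested, had 0 counts untreated and 24 after VPA. All 4 tested of 6 fibroblast markers were higher, from a sum of 460 to 521 to one of 1560 to 1741. Among them DCN, with 0, 0 and 3 counts untreated and 40, 47 and 46 after VPA, was likewise tested only through the VPA-treated libraries. Of 7 kidney line markers 5 were higher (PAX2, KRT8, EPCAM, LHX1 and KRT18) and 2 lower (VIM and CDH2). Their sums were 14127 to 14577 and 12738 to 13350, of which VIM made up most, with means of 10729 untreated and 8923 after VPA. The part of all these markers in the subunit values was not tested. In bulk libraries fewer cells with a transcript and less of it per cell cannot be told apart.

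The scaling of the libraries moved all these log2 fold changes together. The median over all tested genes was 0.0058 with TMM, -0.0081 with DESeq2 size factors, 0.07 with upper quartiles, 0.14 with library totals and 0.28 with ribosomal protein genes. Relative to that median the subunit genes hardly moved under the scalings, at -0.17 for SMARCA4, 0.19 for SMARCA2, -0.10 for ACTL6A, -0.57 for PHF10, -0.33 for DPF2, 0.49 for DPF1, 0.52 for DPF3, -0.12 for SS18 and -0.24 for SS18L1. DPF1, DPF3, SMARCA2 and PHF10 kept both direction and call under each of these scalings.

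**Figure D5:**
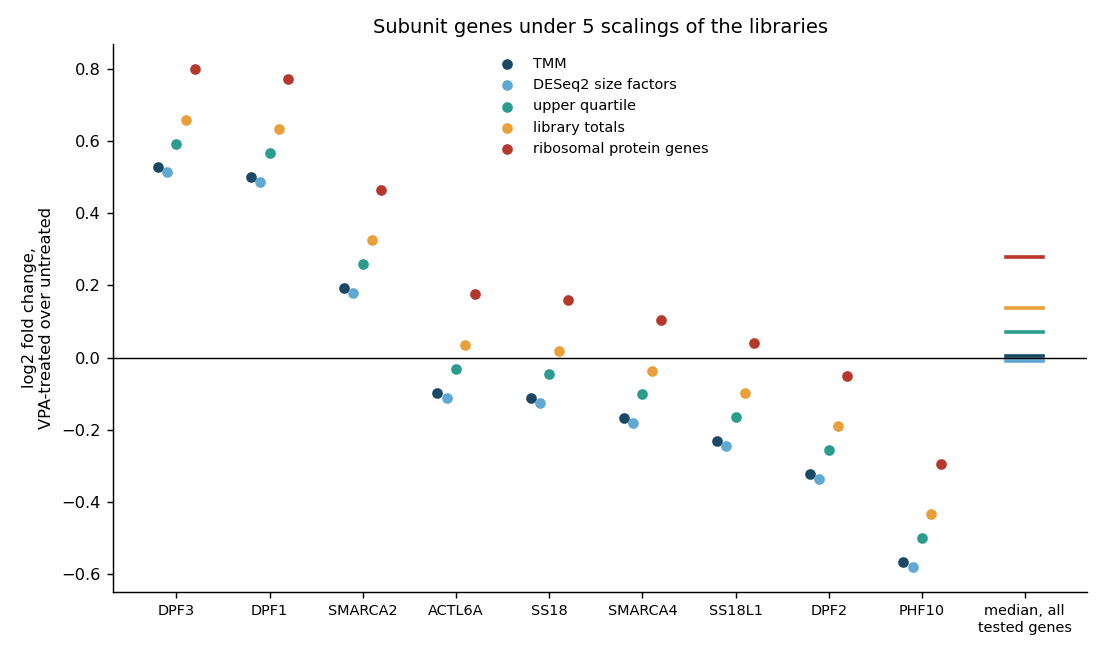
Log2 fold changes of the 9 tested subunit genes (x axis) under 5 scalings, 1 colour each, with the median of all tested genes under the same scaling as a short line at the right. ACTL6A and SS18 lie above 0 with library totals and ribosomal protein genes, SMARCA4 and SS18L1 with ribosomal protein genes, and the others stay on their side of 0.

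Some of these genes overlap others on the opposite strand in GENCODE 44. MRPL47 covers 3.35% of the exon bases of ACTL6A, SMARCA2-AS1 covers 2.20% of those of SMARCA2 and C6orf120 covers 8.11% of those of PHF10, and unnamed long non-coding RNA genes cover 13.5% of those of DPF2 and 17.8% of those of SS18L1. The libraries were strand-specific, but the strand setting of the counting is not given in the sources used here, so a part of these counts could belong to the partner.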

How the data were processed

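Total RNA of 3 untreated and 3 VPA-treated HEK293T cell samples was made into strand-specific mRNA libraries. Reads were trimmed by the authors (SOAPnuke) and mapped to hg38 (STAR), and the deposited values are the whole-number counts that htseq-count then gave for each gene, not normalized. The submitters' processing notes give STAR 2.7.10b and HTSeq 2.0.1. Neither the gene annotation nor how strand was treated in the counting is given in the sources used here. The 5 summary lines were left out, which held 6.80% to 7.69% (no gene), 1.97% to 2.10% (ambiguous) and 2.81% to 2.92% (no unique place) of the reads listed. Genes with near-identical copies lose reads in this way.

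Groups and replicate numbers were taken from the sample titles. Condition was tested in edgeR 4.0.16 under R 4.3.3 (TMM, filterByExpr with a count minimum of 10, robust quasi-likelihood fit on condition, prior count 0.125, Benjamini-Hochberg over 15298 genes), and DESeq2 1.42.0 was an alternative. The biological coefficient of variation was 3.83%. Standard errors are the log2 fold change over the root of F. Chi-square values of 1.62 to 4.80 per gene between replicates exceeded sampling noise. Paralog ratios used a pseudocount of 0.5. Intervals of ratios for genes with few counts are exact binomial, at 95%, and cover counting error only.

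Same-numbered libraries deviated together from their group means across genes of at least 50 counts. The Pearson correlation there was 0.364, 0.11 and 0.278 for the 3 numbers, against -0.288 to 0.052 for other pairs. Over all tested genes it was 0.139, 0.0214 and 0.0805, against -0.107 to 0.0308 for other pairs, so number 2 did not stand out. The numbers were therefore read as a possible pairing, from the data and not from the labels. The main fit and the permutation tests do not use it, and the fit with the replicate number as a block is given where it changed a call.

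The members, the gene lists and the alternatives were chosen with earlier results of these data known. All 10 members are named. From the lists of other subunits and other ATPases, genes past the adjusted p whose log2 fold change reached 1 or -1, or else the 3 of smallest p, could be named, and all regulators and downstream genes. Promoters are from RefSeq on GRCh38.p14 (9 of 10 members matched), transcripts from GENCODE 44. The test was tested on simulated counts, the outcome of which is not given here. The other data types of the study were not analysed here.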

Additional observations from a re-analysis of the deposited data

How the results depend on the processing

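Scaling changed the counts of higher and lower genes. With ribosomal protein genes as the scaling, 6 subunit genes were higher and 1 lower. Of the other SWI/SNF subunits 4 were higher and 6 lower, and of the other remodeller ATPases 9 were higher and 2 lower. Over all 15298 tested genes, 9262 were higher and 846 lower with that scaling. Library totals gave 2 lower subunit genes, 3 higher other subunits, and 5 higher and 5 lower remodeller ATPases. Upper quartiles gave 3 lower subunit genes, 2 higher other subunits and 6 lower ATPases. Over all 15298 tested genes, library totals gave 6713 higher and 2372 lower, and upper quartiles 5810 higher and 3413 lower. The direction turned with ribosomal protein genes for SMARCA4 (0.10), ACTL6A (0.18), SS18 (0.16), SS18L1 (0.0413), REST (0.20) and PTBP2 (0.11), and with library totals for ACTL6A (0.0345), SS18 (0.0196) and REST (0.0572). These turns follow from the shift of all genes by the scaling.

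With at least 10 counts required in every library, 2 other subunits were higher, against 4489 of all 13882 genes then tested. The replicate block gave 6 lower and 3 higher subunit genes, 2 higher and 16 lower other subunits, and no lost call among the genes named. Over all 15298 tested genes the block gave 5357 higher and 5100 lower. It moved ACTL6A to -0.10 with an adjusted p of 0.013. Leaving out 1 library at a time gave 3 to 5 lower subunit genes, 1 to 2 higher other subunits and 10 to 11 lower ATPases, with 3 lower subunit genes without VPA-treated replicate 2. Those fits gave 4680 to 4983 higher and 4133 to 4528 lower genes out of 15478 to 15616 tested. The ACTL6B/ACTL6A ratio ran from -0.11 to 0.41 when 1 library was left out, and was -0.03 without untreated replicate 1. DESeq2 gave 3 higher and 5 lower subunit genes, against 4239 higher and 4234 lower of the 19502 genes it tested. No subunit gene was up- or down-regulated by any tool or scaling. Among genes with few counts, MIR124-1HG went from 4.32 to 2.76 with a prior count of 2, and MIR9-1HG ran from 1.40 to 2.02 when 1 library was left out. SS18 lost its call with upper quartiles (adjusted p = 0.38) and the stricter filter (0.084), and SS18L1 with upper quartiles (0.071) and library totals (0.32). SMARCA2, PHF10, DPF1 and DPF3 kept direction and call in all 15 alternatives. With merged exon lengths, an alternative added after seeing the data, the share of DPF1 and DPF3 changed by 8.13 percentage points. Depth limits ACTL6B, MIR9-3HG and STMN2, which were not tested. The causes of these differences between alternatives were otherwise not tested.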
